A study of Mus musculus with 8 samples.

Results

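Fibroblast growth factor (FGF) signalling and its Sprouty feedback were followed through 10 genes in mouse astrocytes with and without RGC-32, the protein encoded by Rgcc. The genes were chosen by name, and all 10 had a row in the count table of 13937 genes, where they are written FGF1, FGF2, FGFR1, FGFR2, FGFR3, FGFBP3, SPRY1, SPRY2, SPRY4 and DUSP6. All 10 were among the 13509 genes with enough counts to be tested. The cells were primary brain astrocytes from C57BL/6 pups on postnatal day 1, either wild type (WT) or RGC-32 knockout (KO), and each genotype was starved of serum overnight and then either left as control or treated with TGF-β (10 ng/ml, 24 h). Each of the 4 groups had 2 biological replicates, so that 8 RNA-seq libraries were compared. All cultures had been grown in serum and shaken to remove neurons and oligodendrocyte precursors. The study's methods report that nearly all isolated cells expressed the astrocyte protein GFAP. RNA of marker genes of other cell types was also counted in every library, as described after the knockout check.

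Most FGFs are secreted ligands that bind tyrosine kinase receptors together with heparan sulfate, a sugar chain of the cell surface and matrix. The bound receptor recruits the adaptor FRS2 and activates RAS and the kinases RAF, MEK and ERK. ERK activity in turn induces Sprouty proteins, which dampen the RAS to ERK step, and the phosphatase DUSP6, which removes phosphate from ERK itself. In brain, FGF2 is a mitogen and survival factor of astrocytes and neural progenitors, and FGFR3 is a receptor typical of astrocytes.

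The targeted gene was checked first. Rgcc (chr14:79288756-79301645, minus strand, GRCm38) had 5.16 and 5.61 CPM (counts per 1000000 library counts, with library sizes scaled by TMM) in WT control, 11.9 and 23.1 in WT TGF-β, 3.89 and 1.66 in KO control and 4.29 and 1.72 in KO TGF-β. Every KO library lay below every WT library, although Rgcc reads were still counted in the KO and neither genotype difference passed in edgeR (-0.97 on the log2 scale in control, adjusted p = 0.78, and -2.54 with TGF-β, adjusted p = 0.133). DESeq2 called the difference with TGF-β (-2.55, adjusted p = 0.0285). The libraries held 14920561 to 18956038 counts. Cell type markers are counted as higher or lower with TGF-β by both limits given below for the 10 genes. Past both limits, 7.72% of all tested genes were higher and 5.65% lower in WT, and 6.61% and 4.93% in KO. The 10 astrocyte markers examined were all expressed, and 2 of them were lower in WT and 1 in KO. By adjusted p at any fold, 7 of the 10 were lower and 1 higher in WT, and 6 lower and 1 higher in KO. All tested genes gave 32.9% and 28.4% in either direction. The summed level of the astrocyte markers was 4400 to 4630 CPM in WT control, 3440 to 3560 in WT TGF-β, 5070 to 5780 in KO control and 4260 to 4550 in KO TGF-β. Of the 9 tested meningeal fibroblast markers 3 were higher and 2 lower with TGF-β in WT, 3 were higher and 0 lower in KO, and the sum was 4030 to 4820, 7850 to 9030, 3140 to 3340 and 5870 to 6010 CPM in the same order of groups. Most of the rise in this sum was Col1a1 (group means of 1700, 4220, 1260 and 2890 CPM) and Col1a2 (1560, 3300, 1030 and 2210 CPM). In each genotype 6 of the 9 had a negative log2 fold change. Of those 6, 4 in WT and 2 in KO passed the adjusted p at any fold. Microglial markers summed to between 1050 and 1390 CPM in every library, with 1 of 10 tested higher in each genotype. Oligodendrocyte lineage markers summed to 221 to 266 CPM in control and 374 to 545 CPM with TGF-β, with 1 of 8 tested higher and 1 lower in WT and 2 higher and 1 lower in KO. Most of that rise was Cspg4, with group means of 32, 279, 29 and 186 CPM in the order of groups used above. Pdgfra went down, with means of 13, 6.57, 13.4 and 8.18 CPM. The log2 fold change was positive for 5 of the 8 in WT and 4 in KO. Endothelial markers summed to 93.6 to 120 CPM in control and 57.1 to 69.5 CPM with TGF-β, with 1 of 5 tested higher and 1 lower in WT and 2 lower in KO. Most of that sum was Cdh5, with group means of 65.8, 30.8, 68.1 and 37.8 CPM in the same order, and Kdr (29, 20.5, 30.4 and 19.2 CPM). Group means of Pecam1 were 0.864 to 1.26 CPM, and Cldn5 and Emcn had no row in the count table. Ependymal markers summed to 347 to 417 CPM in control and 219 to 275 CPM with TGF-β, and 5 of 5 tested were lower with TGF-β in WT and 3 of 5 in KO. Neuron markers (4 tested) summed to 97.2 to 138 CPM and proliferation markers (8 tested) to 246 to 331 CPM. In each genotype 1 neuron marker was higher with TGF-β. Between the genotypes in control, 8 of the 10 astrocyte markers were higher in KO and the 9 tested fibroblast markers were lower. In edgeR 0 of them passed both limits, and 4 and 6 had an unadjusted p under 0.05, beside 6.84% of all genes. The part of other cell types in the values that follow was not tested, and in such bulk samples fewer cells of a type and less RNA per cell cannot be told apart.

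With TGF-β, the ligand gene Fgf2 rose in both genotypes, while the ligand gene Fgf1 fell and the binding protein gene Fgfbp3 rose in WT. A gene was counted as changed when its log2 fold change was at least 0.6 in size and its adjusted p (edgeR quasi-likelihood test, Benjamini-Hochberg over all tested genes) was under 0.05. In WT, 3 of the 10 genes changed, beside 13.4% of all tested genes, and without WT control replicate 2 it was 1 of 10. The 2 that rose stand beside 7.72% of all genes, and the 1 that fell beside 5.65%. In KO, 1 of the 10 changed, beside 11.5% of all genes, with 1 higher (6.61% of all genes) and 0 lower (4.93%). At any fold, 3 of 10 passed the adjusted p alone in WT and 2 of 10 in KO, beside 32.9% and 28.4% of all genes, and these shares of the small list were therefore no larger than those of the whole table. The median log2 fold change of the 10 genes was 0.14 in WT and 0.18 in KO, where that of all tested genes was 0.00. Of all changed genes 57.8% were higher in WT and 57.3% in KO, and with upper quartile scaling these shares were 44.8% and 45.5%.

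**Figure D1:**
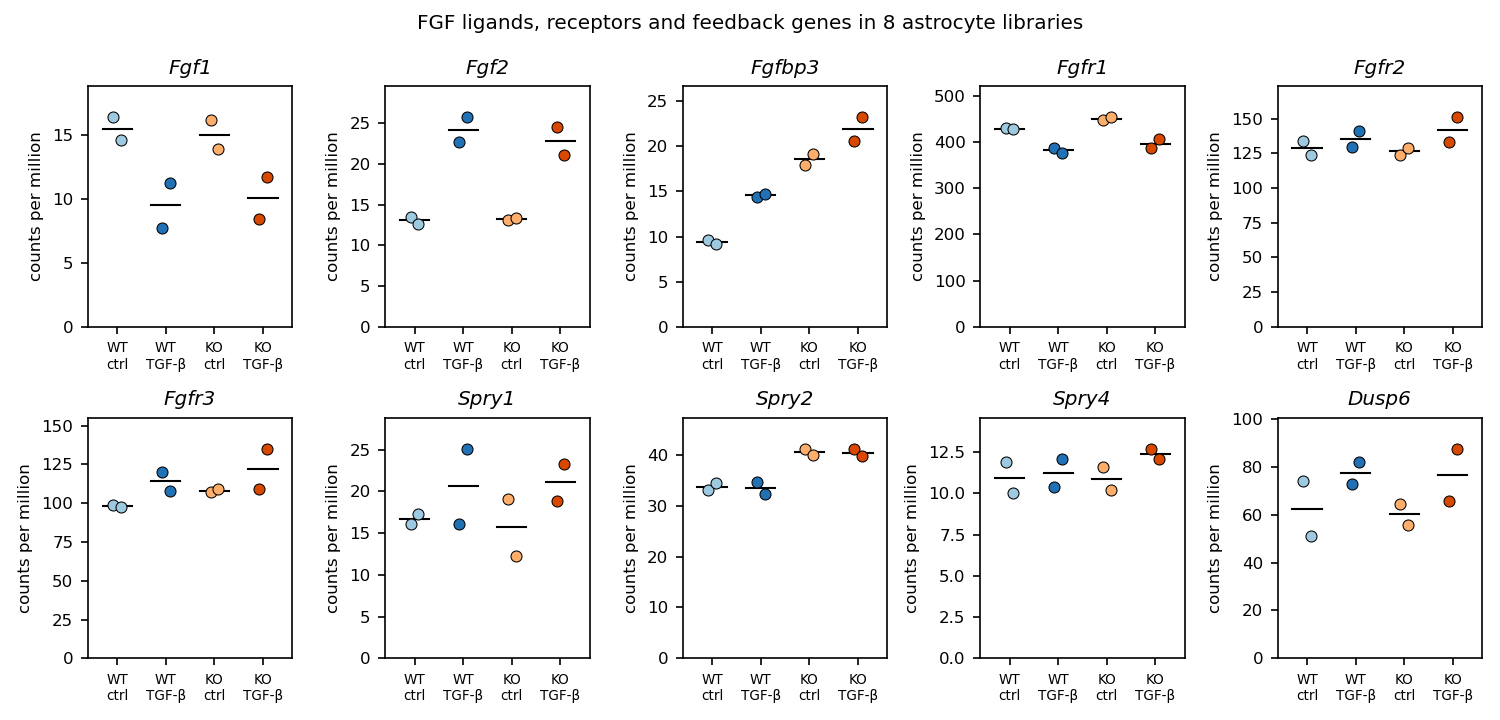
Level of each of the 10 genes (y axis, CPM, from 0) in the 8 libraries (points) of the 4 groups (x axis), with the group mean as a line. Fgf2 lay at 12.6 to 13.5 in the 4 control libraries and at 21.1 to 25.7 in the 4 TGF-β libraries, whereas Spry2 lay at 32.4 to 34.6 in WT and at 39.8 to 41.2 in KO under either condition.

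Fgf2 (chr3:37348346-37410108, plus strand) encodes basic FGF, a ligand without a classical secretion signal. Its level was 13.5 and 12.6 CPM in WT control and 22.7 and 25.7 in WT TGF-β. In KO it was 13.1 and 13.4 CPM in control and 24.5 and 21.1 with TGF-β. The control and TGF-β libraries did not overlap in either genotype, and the 2 genotypes overlapped under each condition. The log2 fold change with TGF-β was 0.89 ± 0.11 (SE) for WT, a 1.85-fold rise (adjusted p = 0.00103), and 0.78 ± 0.11 in KO, a 1.72-fold rise (adjusted p = 0.00215). The difference between these responses was -0.11 ± 0.15, with a 95% interval of -0.46 to 0.25. In the deposited FPKM the WT values were 12.2 and 12.3 in control and 21.6 and 21.7 with TGF-β, but the KO values rose less, from 14.3 and 14.8 to 21.4 and 17.3. On log2(FPKM + 1) the KO rise was 0.38 and on log2(FPKM + 0.1) 0.40, both below the fold limit.

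The 3′ part of Fgf2 overlaps Nudt6, a gene for a nudix hydrolase that is read from the opposite strand (chr3:37404910-37420211, minus strand). The overlapping stretch spans 5199 bases, chr3:37404910-37410108, and 640 bases of it, 9.4% of the annotated Fgf2 exon sequence, are exonic in both genes. The libraries were unstranded, so that reads of the overlap cannot be told apart. Nudt6 was at 26.4 and 24.9 CPM in WT control, 43.7 and 47.3 in WT TGF-β, 29.0 and 26.8 in KO control and 48.7 and 44.7 in KO TGF-β. It rose by 0.82 ± 0.08 on the log2 scale in WT (adjusted p = 0.000402) and by 0.74 ± 0.08 in KO (adjusted p = 0.00073). In FPKM, Nudt6 was at 7.42 and 7.21 in WT control, 9.59 and 9.79 in WT TGF-β, 6.55 and 6.72 in KO control and 12.1 and 10.4 in KO TGF-β. Fgf2 and Nudt6 thus had similar fold changes in the counts, while in FPKM the larger rise was that of Fgf2 in WT and of Nudt6 in KO. The Nudt6 rise in WT fell below the fold limit in both FPKM fits (0.36 and 0.40). How much of either rise lies outside the shared bases was not tested. Nudt6 was named after its values were seen, because of the overlap.

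The promoters of Fgf2 and Fgfbp3, the 2 genes that rose and have an entry among the RefSeq promoters, are shown as the sequence next to the measured change. Each runs from 250 bases before to 50 bases after a RefSeq transcript start on build GRCm38.p6, 5′ to 3′ on the strand of the gene. Capitals mark matches on either strand to any of 4 motifs, CAGAC (the SMAD box bound by the transcription factors of TGF-β signalling), TGANTCA (AP-1), GGGCGG (the GC box) and CCGGAA (an ETS core). The Fgf2 window is chr3:37348403-37348702 (plus strand) and the Fgfbp3 window is chr19:36919550-36919849 (minus strand).
Fgf2: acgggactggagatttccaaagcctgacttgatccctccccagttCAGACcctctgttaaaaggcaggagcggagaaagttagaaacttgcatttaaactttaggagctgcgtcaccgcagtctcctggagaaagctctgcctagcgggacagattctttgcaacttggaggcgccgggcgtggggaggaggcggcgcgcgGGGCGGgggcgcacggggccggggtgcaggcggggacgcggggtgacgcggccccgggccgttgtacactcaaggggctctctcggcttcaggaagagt
Fgfbp3: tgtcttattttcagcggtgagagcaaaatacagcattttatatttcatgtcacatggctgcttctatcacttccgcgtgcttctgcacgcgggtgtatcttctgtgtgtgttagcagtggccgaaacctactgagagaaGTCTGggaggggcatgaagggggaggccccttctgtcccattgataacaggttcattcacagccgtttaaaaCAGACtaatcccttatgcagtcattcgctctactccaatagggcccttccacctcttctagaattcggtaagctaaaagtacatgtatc
The Fgf2 window held 1 match to CAGAC and 1 to GGGCGG. The Fgfbp3 window held 2 matches to CAGAC, of which 1 is read on the other strand. Neither held TGANTCA or CCGGAA, and no matches overlapped. Among 32851 mouse promoters of the same length, 49.6% held CAGAC, 35.7% GGGCGG, 14.9% CCGGAA and 7.8% TGANTCA, so that a match to CAGAC is common in windows of 300 bases. Of the 10 genes, 7 had a promoter entry. The other 5 of these (Fgfr2, Fgfr3, Spry1, Spry2 and Dusp6) held no match to the SMAD box or the AP-1 motif. The GC box was also found in Spry1 (1 match) and in both windows of Fgfr3 (4 and 2 matches). Spry2 held 1 match to the ETS core, and Fgfr2 and Dusp6 held none of the 4 motifs. Whether any of these motifs has a part in the measured changes was not tested.

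Fgfbp3 encodes a secreted carrier that releases FGFs from heparan sulfate in the matrix. It was at 9.67 and 9.13 CPM in WT control and at 14.4 and 14.7 in WT TGF-β. The KO libraries were higher throughout, with 17.9 and 19.2 CPM in control and 20.6 and 23.2 with TGF-β. The lowest KO control library therefore exceeded both TGF-β libraries of WT, and no 2 groups overlapped. The response to TGF-β was 0.63 ± 0.10 in WT (1.55-fold, adjusted p = 0.00362) and 0.24 ± 0.10 in KO (1.18-fold, adjusted p = 0.101). The WT rise stood just above the fold limit of 0.6, and it fell below it with upper quartile scaling (0.54), in both FPKM fits (0.37 and 0.42) and without WT control replicate 2 (0.57) or WT TGF-β replicate 2 (0.60 after rounding).

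Fgf1 encodes acidic FGF, a ligand that can bind every FGF receptor. It was at 16.4 and 14.6 CPM in WT control and at 7.74 and 11.3 in WT TGF-β, and at 16.2 and 13.9 CPM in KO control and 8.44 and 11.7 in KO TGF-β. The treated libraries lay below the control libraries in both genotypes, but replicates within a treated group differed by more than those within a control group. On the log2 scale Fgf1 changed by -0.71 ± 0.21 in WT (0.61-fold, adjusted p = 0.0336) and -0.58 ± 0.21 in KO (0.67-fold, adjusted p = 0.0743). The WT call was lost without WT control replicate 1 (-0.62, adjusted p = 0.118), without WT control replicate 2 (-0.82, adjusted p = 0.0625) and without WT TGF-β replicate 1 (-0.45, adjusted p = 0.175), and it fell below the fold limit on log2(FPKM + 1) (-0.57). In KO, Fgf1 passed both limits with upper quartile scaling (-0.66, adjusted p = 0.0419) and on log2(FPKM + 0.1) (-0.63, adjusted p = 0.0388). The 2 genotypes did not differ beyond the error, with a difference between the responses of 0.13 and a 95% interval of -0.55 to 0.82.

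**Figure D2:**
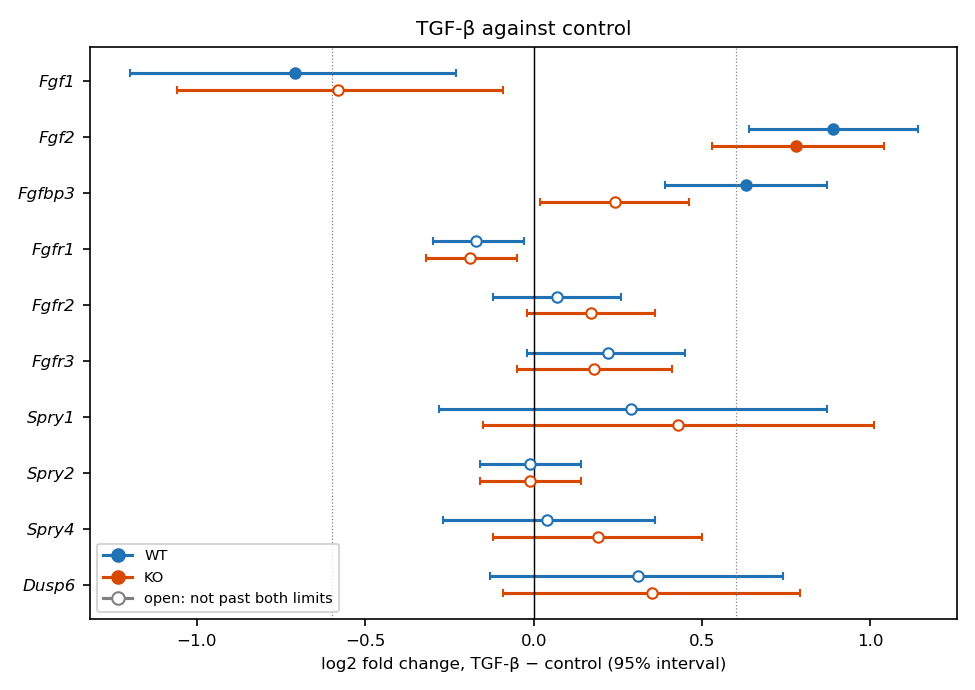
Log2 fold change of each gene with TGF-β against control (x axis, with its 95% interval) in WT and KO. Filled points passed both limits and dotted lines stand at a log2 fold change of 0.6 in either direction: Fgf2 passed in both genotypes (0.89 and 0.78), Fgfbp3 (0.63) and Fgf1 (-0.71) passed in WT.

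Of Fgfr1, Fgfr2 and Fgfr3, Fgfr1 had the highest level per transcript length and was the only one whose interval lay below 0 in both genotypes. In the deposited FPKM, Fgfr1 (chr8:25513654-25575718, plus strand, with 164 exon bases shared with the antisense gene Gm16159) was at 67.0 and 67.3 in WT control, 55.7 and 55.9 in WT TGF-β, 71.2 and 72.4 in KO control and 56.7 and 59.0 in KO TGF-β. Fgfr2 (chr7:130162451-133123350, minus strand, with 314 of its exon bases shared with Ctbp2 on the same strand) lay between 18.4 and 21.1 FPKM in the 8 libraries and Fgfr3 (chr5:33721674-33737068, plus strand, with 998 exon bases, 13.9%, shared with G630022F23Rik on the opposite strand) between 18.0 and 21.8, so that these 2 receptors had overlapping ranges. Fgfr1 encodes the receptor whose mesenchymal splice form prefers FGF2, and the table does not separate splice forms of the receptors.

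The Fgfr1 counts gave 430 and 427 CPM in WT control and 386 and 377 in WT TGF-β, and 448 and 453 CPM in KO control and 386 and 406 in KO TGF-β. All 4 treated libraries lay below all 4 control libraries. The fitted Fgfr1 response was -0.17 ± 0.06 for WT (adjusted p = 0.0568) and -0.19 ± 0.06 in KO (adjusted p = 0.046), so that neither passed both limits, and the 95% intervals of -0.30 to -0.03 and -0.32 to -0.05 did not reach -0.6. Over the alternatives, its adjusted p lay between 0.00246 and 0.202 for WT and between 0.00163 and 0.257 for KO.

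Fgfr2 was at 134 and 124 CPM in WT control, 130 and 141 in WT TGF-β, 124 and 129 in KO control and 133 and 151 in KO TGF-β. The fitted Fgfr2 response was 0.07 ± 0.08 for WT and 0.17 ± 0.08 for KO (adjusted p = 0.536 and 0.149). Fgfr3, the receptor most used as an astrocyte marker, was at 98.7 and 97.6 CPM in WT control, 120 and 108 in WT TGF-β, 107 and 109 in KO control and 109 and 135 in KO TGF-β. The fitted Fgfr3 response was 0.22 ± 0.10 for WT and 0.18 ± 0.10 for KO (adjusted p = 0.134 and 0.213). For both genes the 95% intervals stayed below 0.6 in both genotypes, the highest upper bound being 0.45.

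None of the Sprouty genes or Dusp6 passed both limits for TGF-β in either genotype. Spry2 (chr14:105891947-105896819, minus strand) showed little spread between replicates. It was at 33.1 and 34.4 CPM in WT control, 34.6 and 32.4 in WT TGF-β, 41.2 and 40.1 in KO control and 41.1 and 39.8 in KO TGF-β. The TGF-β response of Spry2 was -0.01 ± 0.07 in WT and -0.01 ± 0.06 in KO, with 95% intervals of -0.16 to 0.14 in both, so that both intervals were narrow and centred near 0. For WT the deposited FPKM of Spry2 was 13.9 and 14.2 in control and 12 and 12.3 with TGF-β. The KO values were 18 and 16.9 in control and 16 and 15.2 with TGF-β, so that both genotypes were lower when treated. In FPKM the median log2 fold change of all genes was also below 0. It was -0.0984 in WT and -0.107 in KO with a pseudocount of 1, and -0.123 and -0.129 with 0.1. Over the alternatives, the Spry2 response reached -0.21 in WT and -0.16 in KO, short of the fold limit. The lowest adjusted p among them was 0.017 in WT and 0.0415 in KO. In FPKM, Spry2 lay between 12 and 18, above Spry1 (5.65 to 8.95) and Spry4 (1.87 to 2.35), and these 3 ranges did not overlap.

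Spry1 (chr3:37639947-37644598, plus strand, 292 kb from the start of Fgf2) shares 710 exon bases, 24.4% of its exon sequence, with Gm42922 on the opposite strand, whose reads cannot be told apart in unstranded libraries. Spry1 was at 16.1 and 17.3 CPM in WT control, 16.1 and 25.1 in WT TGF-β, 19.1 and 12.3 in KO control and 18.9 and 23.3 in KO TGF-β. Replicates differed by as much as the groups, and the log2 fold changes of 0.29 ± 0.25 in WT and 0.43 ± 0.25 in KO had 95% intervals of -0.28 to 0.87 and -0.15 to 1.01. A rise past the fold limit could therefore not be told from no change for Spry1 at this number of replicates. Dusp6 (chr10:99263231-99267489, plus strand) was likewise variable, with 74 and 51.1 CPM in WT control, 72.8 and 82.0 in WT TGF-β, 64.5 and 55.9 in KO control and 65.9 and 87.5 in KO TGF-β. The log2 fold changes of Dusp6 were 0.31 ± 0.19 and 0.35 ± 0.19 in WT and KO (adjusted p = 0.246 and 0.201), with upper 95% bounds of 0.74 and 0.79.

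Spry4 (chr18:38586247-38601415, minus strand) lies 328 kb from Fgf1 (chr18:38838673-38929472, minus strand), measured between their starts. Spry4 was at 11.9 and 10.0 CPM in WT control, 10.4 and 12.1 in WT TGF-β, 11.6 and 10.2 in KO control and 12.7 and 12.1 in KO TGF-β. The groups overlapped in WT and only just separated in KO. The fitted Spry4 response was 0.04 ± 0.14 for WT and 0.19 ± 0.14 in KO, with 95% intervals of -0.27 to 0.36 and -0.12 to 0.50, both below the fold limit.

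Between the genotypes, Fgfbp3 was the only one of the 10 genes past both limits, and only in control. Its log2 difference, KO minus WT, was 0.98 ± 0.10 in control (1.97-fold, adjusted p = 0.0367) and 0.59 ± 0.10 with TGF-β (1.5-fold, unadjusted p = 0.00033, adjusted p = 0.105). The 1 of 10 in control stands beside 0.0370% of all tested genes, which is 5 genes, and the 0 of 10 with TGF-β beside 0.0444%, which is 6 genes. By unadjusted p under 0.05 in edgeR, 2 of 10 differed in each condition, beside 6.84% of all genes in control and 11.7% with TGF-β, and DESeq2 and limma-voom also called 0 of 10 with TGF-β. The size of the control difference held in every alternative (0.73 to 1.03), but its adjusted p ranged from 0.000463 to 0.354. The call was lost with limma-voom (adjusted p = 0.0642), in the fit of the 4 control libraries (0.172) and when any 1 of the 8 libraries was left out (0.0747 to 0.354).

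**Figure D3:**
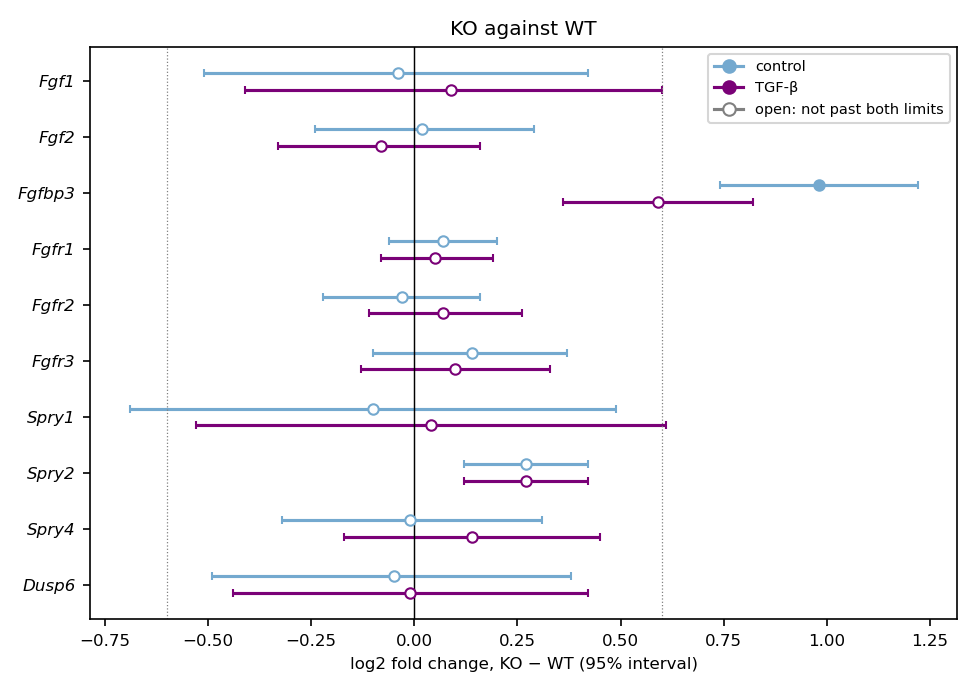
Log2 difference of each gene between KO and WT (x axis, with its 95% interval) in control and with TGF-β. Filled points passed both limits: only Fgfbp3 in control did (0.98), and the Spry2 intervals (0.12 to 0.42 in both conditions) lay above 0 without passing.

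The other gene with an unadjusted p under 0.05 in both conditions was Spry2. All 4 KO libraries (39.8 to 41.2 CPM) exceeded all 4 WT libraries (32.4 to 34.6 CPM). Its difference was 0.27 ± 0.06 in control (unadjusted p = 0.00327, adjusted p = 0.456) and 0.27 ± 0.06 with TGF-β (unadjusted p = 0.00317, adjusted p = 0.202), a 1.2-fold higher level that failed the correction and lay below the fold limit. Spry2 and Rgcc lie on the same chromosome, about 26.6 Mb apart. The other 8 genes had differences of -0.10 to 0.14 in the 2 conditions, and for Fgfr1, Fgfr2 and Fgfr3 every 95% interval lay within -0.22 and 0.37.

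Fgfbp3 did not stand alone at its locus (chr19:36917550-36919615, minus strand). Among the 16 other tested genes whose start lies within 1 Mb, Ide, which encodes insulin-degrading enzyme and starts 418 kb away (chr19:37268743-37337852, minus strand), was also higher in KO. It was at 125 and 119 CPM in WT control, 148 and 141 in WT TGF-β, 193 and 206 in KO control and 242 and 251 in KO TGF-β. The Ide difference was 0.71 ± 0.06 in control (adjusted p = 0.0136) and 0.77 ± 0.06 with TGF-β (adjusted p = 0.00669). Btaf1, the nearest tested neighbour at 6.5 kb, differed by 0.39 ± 0.09 and 0.34 ± 0.09 (adjusted p = 0.47 and 0.242), whereas Cpeb3, which lies between Btaf1 and Ide, gave -0.03 ± 0.11 and -0.05 ± 0.11. The other 14 genes lay between -0.93 and 0.28 in control and between -0.69 and 0.56 with TGF-β, and none of them passed the test, the highest being Ppp1r3c, which encodes a glycogen-targeting phosphatase subunit (0.56 ± 0.11 with TGF-β, adjusted p = 0.141). The Ide difference held its size under the 18 alternatives (0.66 to 0.81), but its call was lost in 9 of them in control and in 4 with TGF-β, among them leaving out any library of the 2 groups compared. These neighbours were looked up after the values of Fgfbp3 were seen.

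**Figure D4:**
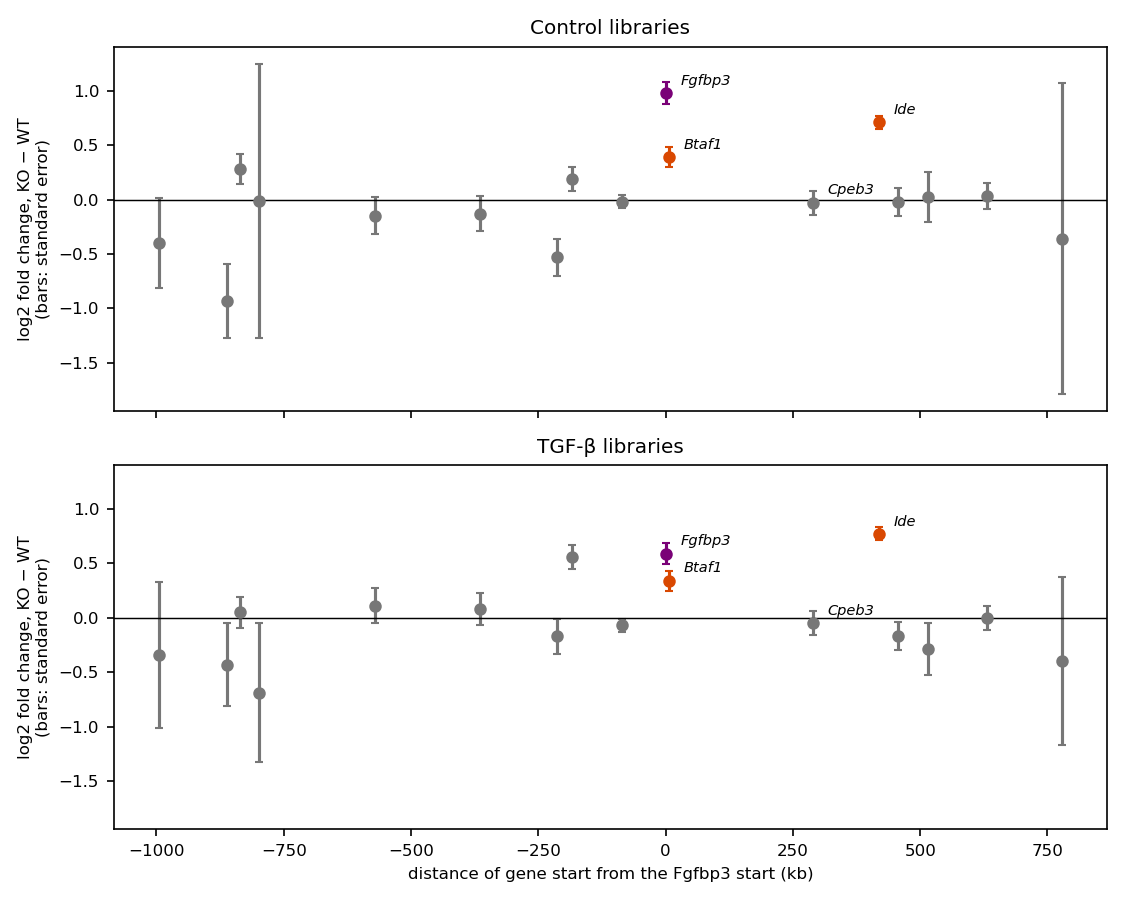
Log2 difference between KO and WT (y axis, with its standard error) of Fgfbp3 and the 16 tested genes within 1 Mb, by distance of the gene start from that of Fgfbp3 (x axis, kb), in control and TGF-β libraries. Fgfbp3 (0.98 and 0.59) and Ide (0.71 and 0.77) are the 2 highest in both panels, Ppp1r3c (0.56) lies close to Fgfbp3 with TGF-β, and Cpeb3 between them lies near 0 (-0.03 and -0.05).

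The 5 genes past both limits between the genotypes in control were Stc1 (1.99), Wdfy1 (1.61), Fgfbp3 (0.98), Ide (0.71) and Nnt (-0.96, in log2 units, KO minus WT). Nnt, which encodes the mitochondrial nicotinamide nucleotide transhydrogenase, was at 102 and 107 CPM in WT control, 89.7 and 97.6 in WT TGF-β, 54.0 and 53.4 in KO control and 50.2 and 48.0 in KO TGF-β. The Nnt difference was -0.96 ± 0.06 in control and -0.93 ± 0.06 with TGF-β (adjusted p = 0.00449 and 0.00425). As background, Nnt carries a deletion in the C57BL/6J substrain that C57BL/6N mice lack. The copy number of Ide and Fgfbp3 on chromosome 19 is known to vary among C57BL/6J mice. The labels give the strain of both genotypes as C57BL/6 with no substrain, and the study's methods call the WT mice littermates. Neither substrain nor gene copies were measured here, and any such difference between the animals and the loss of RGC-32 cannot be told apart in the genotype difference of Fgfbp3.

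For the response to TGF-β, the difference between the genotypes was tested directly as KO response minus WT response. None of the 10 genes passed in edgeR, beside 0% of all tested genes, and DESeq2 and limma-voom called 0 as well. By unadjusted p under 0.05 there was 1 of 10 in edgeR, beside 2.82% of all genes. This was Fgfbp3, whose response was smaller in KO by -0.39 ± 0.14 on the log2 scale (unadjusted p = 0.025, adjusted p = 1, 95% interval -0.72 to -0.06). The other 9 differences lay between -0.11 and 0.14. The calls of Fgf1 and Fgfbp3 that edgeR with TMM scaling made in WT and not in KO were thus not shown to differ between the genotypes.

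The wider pathway was described through 80 further genes in 6 lists, of which 63 were tested and the other 17 were not analysed here. In WT, 11 of 63 were higher and 3 lower with TGF-β, and in KO 10 were higher and 2 lower, and the median over the 63 was 0.22 in WT and 0.14 in KO, again where that of all tested genes was 0.00. These 14 and 12 of 63 stand beside the 13.4% and 11.5% of all genes, and nothing particular to the pathway is read from them. The counts of each list that follow stand beside 7.72% of all genes higher and 5.65% lower in WT, and 6.61% higher and 4.93% lower in KO. Without WT TGF-β replicate 2 the WT count was 9 in place of 14.

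The next list held 8 other tested genes of the FGF family, not all of which encode secreted ligands. Fgf21, a metabolic stress hormone, rose in WT from 8 and 2 counts to 79 and 108. In KO it rose from 8 and 0 counts to 57 and 69. Its fitted log2 fold changes of 4.14 ± 0.66 and 4.05 ± 0.72 rest on those few control reads, and their difference was -0.09 ± 1.39. Fgf9, a ligand that prefers FGFR3 and the mesenchymal receptor forms, rose in WT from 1.81 and 2.63 CPM to 5.47 and 6.84, and in KO from 1.08 and 2.07 CPM to 6.23 and 3.63 (1.46 ± 0.35 and 1.63 ± 0.38, adjusted p = 0.0159 and 0.0162). The Fgf9 calls were lost without WT control replicate 1 or WT TGF-β replicate 2 (adjusted p = 0.0727 and 0.0861, WT) and without KO control replicate 1 or KO TGF-β replicate 1 (0.0824 and 0.101, KO), and on log2(FPKM + 1) the Fgf9 values were 0.49 and 0.52, below the fold limit. In all, 2 of these 8 FGF family genes were higher and 1 lower in WT, and 4 were higher in KO.

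Among the 5 tested co-receptors and binding proteins, 1 was higher and 2 lower in both genotypes. Flrt2, a membrane protein of the FLRT family that can bind FGF receptors and Unc5 receptors, rose in WT from 46.8 and 66.8 CPM to 240 and 244, and in KO from 38.5 and 58.6 CPM to 162 and 157. Fgfbp1, the paralogue of Fgfbp3, went the other way, in WT from 4.26 and 6.98 CPM to 1.22 and 0.831, and in KO from 5.93 and 5.86 CPM to 2.14 and 1.12. The log2 fold changes of Fgfbp1 were -2.44 ± 0.37 and -1.85 ± 0.35 (adjusted p = 0.00235 and 0.0069), opposite in direction to the WT rise of Fgfbp3. Flrt1 fell by 0.91 in WT (adjusted p = 0.024) and by 0.81 in KO (adjusted p = 0.0388), and its call was lost in 4 of 18 alternatives in WT, among them without WT control replicate 2 (0.0955) or either WT TGF-β replicate (0.0649 and 0.118), and in 10 of 18 in KO, among them without KO control replicate 2 (0.197), either KO TGF-β replicate (0.145 and 0.13) or either WT TGF-β replicate (0.0523 in both).

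Of 12 heparan sulfate enzymes 3 rose in each genotype and none fell. Ext1, a polymerase of the heparan sulfate chain, rose in WT from 140 and 148 CPM to 349 and 387, and in KO from 133 and 128 CPM to 333 and 369 (1.36 ± 0.08 and 1.43 ± 0.08, adjusted p = 8.94e-05 and 7.69e-05). Glce, the epimerase that makes iduronic acid, rose by 0.79 ± 0.10 and 0.69 ± 0.10, and Hs6st1, a 6-O-sulfotransferase, by 0.68 ± 0.07 and 0.79 ± 0.07. Hs6st1 fell under the fold limit in WT with upper quartile scaling (0.59), in both FPKM fits (0.54 and 0.55) and without WT TGF-β replicate 2 (0.59). Glce did so in KO in both FPKM fits (0.52 and 0.58) and without KO control replicate 1 (0.54). These are enzymes of the sugar chain that FGF and its receptor need for binding, and no heparan sulfate was measured.

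No gene of the adaptor and RAS to ERK list (18 tested) passed both limits in edgeR, in either genotype. Their log2 fold changes lay between -0.53 and 0.47 in WT and between -0.44 and 0.34 in KO. Of the 18, 8 and 6 passed the adjusted p alone, beside 32.9% of all genes in WT and 28.4% in KO. Of 12 other feedback inhibitors, 4 rose past both limits in WT and 1 in KO, with median log2 fold changes of 0.39 and 0.32. All 12 had a positive log2 fold change in both genotypes. At any fold, 5 passed the adjusted p in WT and 4 in KO, beside the same 32.9% and 28.4%. Dusp4, a nuclear phosphatase of ERK, rose in WT from 6.96 and 8.48 CPM to 15.8 and 15.7, and in KO from 7.59 and 6.27 CPM to 12.1 and 13.9 (1.03 ± 0.14 and 0.91 ± 0.15, adjusted p = 0.00177 and 0.00412). Cbl, a ubiquitin ligase of activated receptors, rose by 0.83 ± 0.10 in WT (adjusted p = 0.000801). In KO it rose by 0.42 ± 0.10 (adjusted p = 0.0169), below the fold limit. Il17rd, also called Sef, a membrane inhibitor of FGF signalling, rose by 0.82 ± 0.15 in WT and gave 0.38 ± 0.16 in KO (adjusted p = 0.00583 and 0.106). The difference between these responses was -0.41 ± 0.14 for Cbl (unadjusted p = 0.0182) and -0.44 ± 0.22 for Il17rd (unadjusted p = 0.0807), each with an adjusted p of 1. Dusp4 and Dusp6, both ERK phosphatases, thus differed in that the first passed the test and the second did not, and the difference between these 2 genes was not tested.

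Of 8 transcription factor genes that follow ERK activity, 1 rose past both limits in each genotype. This was Fosl1, a subunit of AP-1, with 0.97 ± 0.18 in WT and 1.19 ± 0.19 in KO (adjusted p = 0.00592 and 0.00372). At any fold, 3 of the 8 passed the adjusted p in each genotype, all of them higher. This stands beside 32.9% of all genes in WT and 28.4% in KO. The list as a whole had a median of 0.12 in WT and 0.07 in KO.

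**Figure D5:**
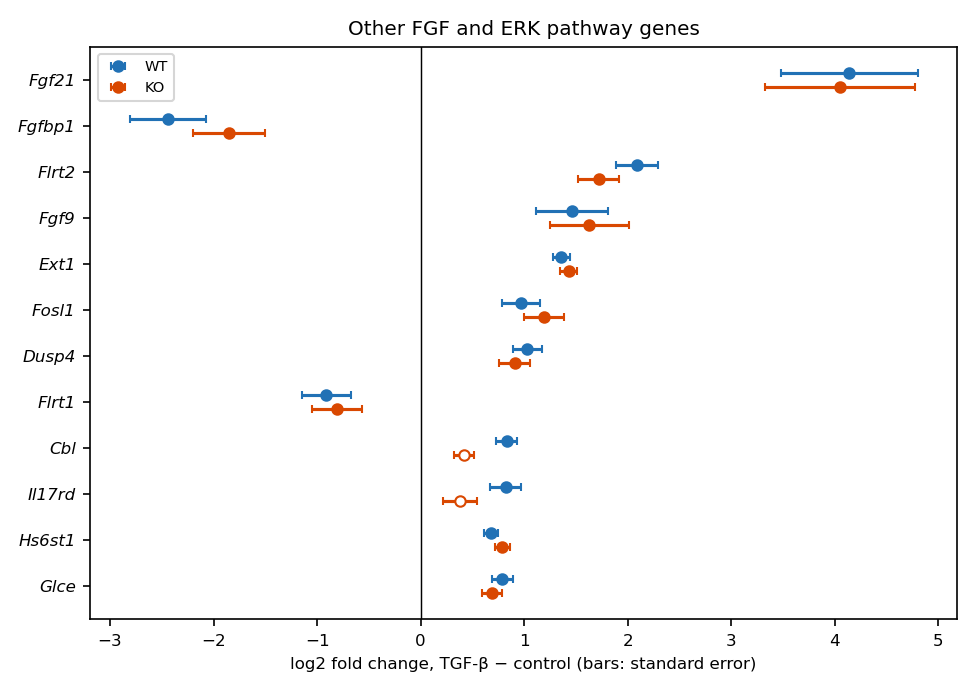
Log2 fold change with TGF-β against control (x axis, with its standard error) of the 12 other pathway genes with the largest changes among those past both limits in either genotype. Filled points passed both limits: Fgf21 (4.14 and 4.05) and Flrt2 (2.09 and 1.72) lie farthest to the right, Fgfbp1 (-2.44 and -1.85) farthest to the left, and Cbl and Il17rd were open in KO.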

How the data were processed

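RNA-seq libraries of primary mouse astrocytes were compared. Per the labels and the study's methods, the authors built unstranded libraries from total RNA and aligned reads to mm10 with STAR, run within the VIPER pipeline. They deposited raw counts per gene and Cufflinks FPKM values, and the program that counted reads per gene and its annotation are not given in the sources used here. The deposited tables of the authors' own comparisons (fold changes and p-values) were not used. Counts were tested in R 4.3.3 with edgeR 4.0.16 (filterByExpr, TMM scaling, quasi-likelihood F test, 1 coefficient per group over 8 libraries), with Benjamini-Hochberg adjustment over 13509 genes. DESeq2 1.42.0 and limma 3.58.1 (voom on counts, and log2 of FPKM + 1 or + 0.1) were alternatives. SE is the log2 fold change divided by the root of F. Other alternatives were RLE and upper quartile scaling, no filter, at least 10 counts in every library, the replicate number as a block, the 4 libraries of a comparison alone, and leaving out each library. Scripts were tested on simulated data. Depth was 14920561 to 18956038 counts per library, and replicates of a group differed by more than counting noise (chi-square per degree of freedom 6.26 to 10.4). FPKM was used to set levels of different genes side by side. Gene positions and overlaps came from GENCODE M21 (GRCm38, the same assembly as mm10).

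The 10 genes and the pathway and marker lists were chosen with earlier results of these data known. All 10 genes are given with values. Of the pathway lists, genes past both limits in either genotype were named, at most 12, by the larger log2 fold change, and the rest are given as counts.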

Additional observations from a re-analysis of the deposited data

How the results depend on the processing

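With the authors' FPKM and a pseudocount of 1, 1 of the 10 genes changed with TGF-β in WT and 0 in KO, and 8 and 7 of the other pathway genes did. The median of all genes shifted by -0.0984 and -0.107 on that scale (WT and KO), and by -0.123 and -0.129 with a pseudocount of 0.1, under which 1 of 10 differed between genotypes with TGF-β. Upper quartile scaling gave 2 of 10 in KO. In control, limma-voom, the 4-library fit and the replicate block each gave 0 of 10 between genotypes. With 1 library left out, 1 to 3 of 10 changed in WT, 0 to 0 differed between genotypes in control, and 9 to 15 other pathway genes changed in WT. For these, the cause was not tested.

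Replicate numbers of the same condition deviated together (correlations over 10489 genes of 0.566 in control and 0.348 with TGF-β), while control and TGF-β libraries of one number deviated oppositely (-0.278 to -0.463), and no label ties the numbers to a shared culture. The replicate block gave 3 and 1 of 10 for TGF-β in WT and KO, and 14 and 10 other pathway genes. With the TGF-β numbers crossed, an alternative chosen after seeing the data, the block gave 3, 1, 1, 0 and 0 of 10 in the 5 comparisons. The block lost the control calls of Fgfbp3 (adjusted p = 0.111) and Ide (0.0539) and the TGF-β call of Flrt1 in KO (0.0566), and no other call among the 10 genes, the 12 named pathway genes, Ide and Nudt6.

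The following changes of sign all concern values that did not pass the test. For the TGF-β response of WT, the values with 1 library left out ranged from -0.01 to 0.13 for Fgfr2, -0.07 to 0.59 for Spry1, -0.05 to 0.02 for Spry2 and -0.09 to 0.17 for Spry4. In the TGF-β response of WT, the sign also turned for Fgfr2 (-0.02 under upper quartile scaling, -0.06 under FPKM, pseudocount 1 and -0.06 under FPKM, pseudocount 0.1) and Spry4 (-0.04 under upper quartile scaling). For the TGF-β response of KO, the values with 1 library left out ranged from -0.0046 to 0.33 for Fgfr3. In the TGF-β response of KO, the sign also turned for Fgfr3 (-7.1e-05 under FPKM, pseudocount 0.1). For KO against WT in control, the values with 1 library left out ranged from -0.15 to 0.07 for Fgf1, -0.03 to 0.07 for Fgf2, -0.09 to 0.03 for Fgfr2, -0.44 to 0.19 for Spry1, -0.13 to 0.12 for Spry4 and -0.30 to 0.24 for Dusp6. In KO against WT in control, the sign also turned for Spry4 (0.0038 under upper quartile scaling, 0.02 under FPKM, pseudocount 1 and 0.03 under FPKM, pseudocount 0.1). For KO against WT with TGF-β, the values with 1 library left out ranged from -0.17 to 0.39 for Fgf1, -0.18 to 0.02 for Fgf2, -0.04 to 0.17 for Fgfr2, -0.07 to 0.26 for Fgfr3, -0.26 to 0.40 for Spry1 and -0.24 to 0.19 for Dusp6. In KO against WT with TGF-β, the sign also turned for Spry1 (-0.03 under FPKM, pseudocount 1 and -0.03 under FPKM, pseudocount 0.1) and Dusp6 (0.0011 under FPKM, pseudocount 1 and 0.00068 under FPKM, pseudocount 0.1). For the difference between the responses, the values with 1 library left out ranged from -0.14 to 0.43 for Fgf1, -0.07 to 0.02 for Fgfr1, -0.01 to 0.20 for Fgfr2, -0.22 to 0.12 for Fgfr3, -0.17 to 0.49 for Spry1, -0.04 to 0.04 for Spry2 and -0.25 to 0.28 for Dusp6. In the difference between the responses, the sign also turned for Spry1 (-0.01 under FPKM, pseudocount 1 and -0.01 under FPKM, pseudocount 0.1), Spry2 (-0.0023 under at least 10 counts in every library) and Spry4 (-0.00078 under FPKM, pseudocount 0.1). Of 1428 comparisons of a log2 fold change with an alternative, 1295 kept both direction and side of the limits.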
